A study of Mus musculus with 4 samples.

Results

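Levels of 10 genes known as markers of mouse embryonic stem (ES) cells were measured in mRNA and in ribosome protected fragments (RPF) of mouse blastocysts. The genes were chosen by name: Dppa2, Dppa3, Dppa4, Dppa5a, Tdh, Utf1, Fbxo15, L1td1, Lin28a and Gdf3. They are 10 of the 20714 gene symbols listed in both assays, and each was listed once in every library. The study compared the proteome, translation and mRNA of mouse oocytes and early embryos, and reported that protein often did not follow the other layers. The libraries used here were 2 RNA-seq and 2 Ribo-seq libraries of blastocysts, which do not measure protein. The RNA-seq libraries were made with Smart-seq2, which primes on polyA tails, and the Ribo-seq libraries with Ribo-lite, a low-input protocol that digests lysates with RNase I and keeps the short RNA that ribosomes cover. All 4 libraries came from untreated wild-type embryos of a cross of C57BL/6 females and PWK males. The females themselves were injected with the hormones PMSG and hCG to induce ovulation. The paper cautions that superovulation and culture may affect embryo quality. The strain label reads C57BL/6N x PWK, whereas the collection protocol names C57BL/6J females, 4 weeks old, and PWK/PhJ males. Collection was at the 8-cell stage, and the blastocysts grew in culture in KSOM medium and were freed of the zona, so each library mixes trophectoderm, epiblast and primitive endoderm. Nothing in the sources says that the 2 libraries of an assay came from separate collections of embryos, so the p-values measure only the spread between these libraries, which may be technical.

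The genes act at different steps of the pluripotent state. DPPA2 and DPPA4 are SAP-domain chromatin proteins that act together upstream of genes of the 2-cell embryo. DPPA3, also called STELLA or PGC7, is a maternal protein that keeps UHRF1 from chromatin and so limits DNA methylation. DPPA5A is a small KH-domain RNA-binding protein, LIN28A binds the precursors of let-7 miRNAs and many mRNAs, and L1TD1 is an RNA-binding protein derived from a LINE-1 element. TDH is the threonine dehydrogenase of mitochondria on which mouse ES cells depend, FBXO15 is an F-box protein of SCF ubiquitin ligases, UTF1 is a chromatin protein, and GDF3 is a secreted ligand of the TGF-beta family. When ribosomes are profiled, the ratio of RPF to mRNA of a gene serves as a measure of its translation per mRNA.

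The bases around the start codon are shown for the 9 genes with an annotated 5′ UTR, since ribosomes select the start codon in this context. The capitals mark the base 3 before the start codon, the start codon itself and the base after it. They were read 5′ to 3′ from the GENCODE vM1 transcripts of NCBIM37, the Ensembl name for mm9.
Dppa2: gcctgcctgAaaATGTcatac
Dppa3: catcgcatcGccATGGaggaa
Dppa4: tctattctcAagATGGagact
Dppa5a: ttccttggcAggATGAtggtg
Tdh: tcagaagaaCagATGCtattc
Utf1: cctggctcaGggATGCtgctt
L1td1: agtgtatccAccATGTcgggc
Lin28a: cagcagacgAccATGGgctcg
Gdf3: gctcagacgAccATGCagcct
A purine stood 3 bases before the start codon in 8 of the 9, all but Tdh. A G followed the start codon in 3 of the 9, and Dppa3, Dppa4 and Lin28a had both features. Over the 16682 coding genes with a start context, 85.6% had the purine, 50.1% had the G and 42.6% had both.

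In NCBIM37, Dppa4 (chr16:48283848-48294405, plus strand, 7 exons) ended 16184 bases before the start of Dppa2 (chr16:48310590-48319836, plus strand, 7 exons). Gdf3 (chr6:122555421-122560105, minus strand, 2 exons) ended 16322 bases before Dppa3 (chr6:122576428-122580290, plus strand, 4 exons). Dppa5a lay at chr9:78214859-78215984 (minus strand, 3 exons), Tdh at chr14:64111184-64127929 (minus strand, 9 exons) and Utf1 at chr7:147129688-147131011 (plus strand, 2 exons). L1td1 lay at chr4:98393425-98405171 (plus strand, 5 exons), Lin28a at chr4:133559245-133574756 (minus strand, 4 exons) and Fbxo15 at chr18:85104550-85150768 (plus strand, 10 exons). The genes had short coding sequences. The coding length was 357 bases for Dppa5a, 453 for Dppa3, 630 for Lin28a, 891 for Dppa4, 906 for Dppa2, 1020 for Utf1, 1101 for Gdf3, 1122 for Tdh, 1437 for Fbxo15 and 2349 for L1td1. It was under the median over 18224 coding genes, 1236 bases, in 8 of the 10.

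The unit is FPKM, fragments scaled to the length of the feature and to the mapped fragments of the library, taken over transcripts in RNA-seq and over coding sequences in Ribo-seq. Spearman's correlation between replicates across 20714 symbols was 0.940 for mRNA and 0.898 for RPF. The low FPKM fell on whole fragments at implied totals of 5458450 and 5156020 fragments for RNA-seq and 531243 and 482712 for Ribo-seq, so the depth of Ribo-seq was the limit. Numbers of fragments below are FPKM converted with these totals. Markers of the embryo's own cells were present, though not all of them. In RNA-seq replicates 1 and 2, trophectoderm markers summed to 3045 and 2824 FPKM, primitive endoderm markers to 161 and 119 FPKM, and epiblast markers to 98.3 and 31.9 FPKM. Dab2 alone gave 148 and 110 FPKM of the primitive endoderm sums. A mean of 1 FPKM in mRNA was reached by 7 of 8 trophectoderm, 2 of 6 primitive endoderm and 3 of 6 epiblast markers. In RPF it was reached by 7, 5 and 6 of them. All 6 epiblast markers were higher in RNA-seq replicate 1, whereas 2 of the 6 were higher in Ribo-seq replicate 1, where they summed to 447 FPKM against 640 FPKM in replicate 2. The 6 primitive endoderm markers were all higher in RNA-seq replicate 1 too, and 5 of them in Ribo-seq replicate 1. For trophectoderm it was 6 of 8 markers in each assay. Of the oocyte markers 5 of 7 were at 0 in all 4 libraries, as were 6 of 7 cumulus and granulosa markers, 4 of 4 fibroblast markers, 2 of 4 blood markers and 2 of 4 sperm markers. The summed levels of these lists were at most 1.92 FPKM, except for 33.7 FPKM of sperm markers in Ribo-seq replicate 2, all from Prm2.

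Dppa5a was far above the other 9 genes in both assays. Its mRNA was at 7039 and 6890 FPKM, rank 2 of all symbols by mean mRNA level, and took 1.35% and 1.29% of the summed mRNA FPKM of the 2 libraries. Its RPF level was 12490 and 13128 FPKM, rank 14. The replicates lay close together, with a mean of 6964 ± 105 FPKM for mRNA and 12809 ± 451 FPKM for RPF (SD, n = 2).

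Dppa3 was the next gene. Its mRNA was at 740 and 577 FPKM, with a mean of 659 ± 115 FPKM (SD, n = 2), and its RPF were at 1831 and 2086 FPKM, with a mean of 1959 ± 181 FPKM (SD, n = 2). Dppa5a was above Dppa3 by 9.51- and 11.9-fold in mRNA and by 6.82- and 6.29-fold in RPF. Dppa3 itself exceeded its neighbour Gdf3 by 69.3- and 91.4-fold in mRNA and by 44.0- and 90.9-fold in RPF.

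Dppa2 and Dppa4, the neighbouring partners, were detected at middle to high levels in every library. The Dppa2 mRNA was at 80.6 and 69.0 FPKM and its RPF at 372 and 361 FPKM. The Dppa4 mRNA was at 39.6 and 38.0 FPKM and its RPF at 179 and 147 FPKM. Dppa2 exceeded Dppa4 in all 4 libraries, by 2.03- and 1.82-fold in mRNA and by 2.08- and 2.45-fold in RPF, and the levels of the pair did not overlap in either assay.

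Fbxo15 was the third gene by level. Its mRNA was at 269 and 303 FPKM and its RPF at 415 and 384 FPKM, with means of 286 ± 24.2 FPKM and 399 ± 21.8 FPKM (SD, n = 2). It was above Dppa2 in both assays, but the gap was narrow in RPF, where the lower Fbxo15 library stood at 384 FPKM and the higher Dppa2 library at 372 FPKM.

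The other 5 genes were at lower levels. The Utf1 mRNA was at 24.1 and 14.2 FPKM and its RPF at 43.5 and 53.0 FPKM. The L1td1 mRNA was at 12.7 and 14.8 FPKM and its RPF at 47.0 and 63.3 FPKM. The mRNA levels of Utf1 and L1td1 overlapped between libraries, so these neighbours in the order did not differ beyond their spread.

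Gdf3, the secreted ligand, had mRNA at 10.7 and 6.31 FPKM and RPF at 41.6 and 22.9 FPKM. In Lin28a, the mRNA was at 2.02 and 3.73 FPKM, but the RPF were at 57.0 and 43.5 FPKM. The Lin28a values rest on 36.4 and 63.5 fragments in RNA-seq and on 13.01 and 9.02 footprints in Ribo-seq. Lin28a was therefore ninth of the 10 genes in mRNA and among the genes around L1td1 and Utf1 in RPF, with the RPF levels of L1td1 and Lin28a and those of Lin28a and Utf1 overlapping.

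Tdh was the lowest of the 10 genes in both assays. Its mRNA was at 2.60 and 0.343 FPKM, and its RPF were at 30.5 and 17.9 FPKM, overlapping those of Gdf3. Its RNA-seq values rest on 24 and 3 fragments, the latter at the floor of 3 fragments, and the fold between these libraries was 7.56 with an exact 95% counting interval of 2.29 to 39.2. Its RPF values rest on 14.9 and 7.98 footprints. The mRNA of Tdh overlapped that of Lin28a. Intervals and floors cover counting error only.

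**Figure D1:**
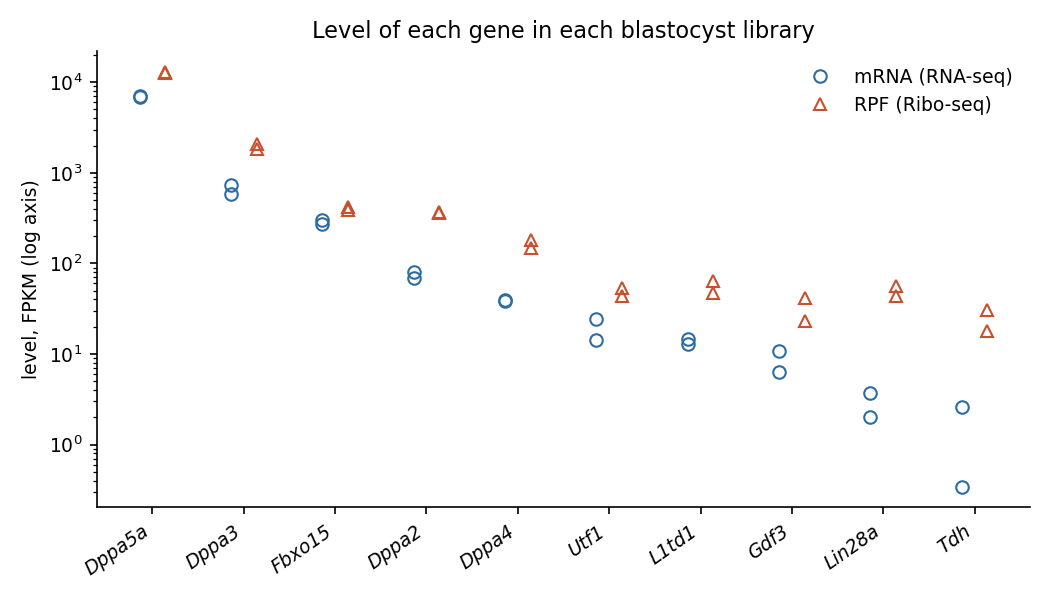
FPKM of each of the 10 genes in each library on a log axis, with points for the 2 RNA-seq (mRNA) and the 2 Ribo-seq (RPF) libraries and genes in the order of their levels. Dppa5a sits highest with 12490 and 13128 FPKM of RPF, Tdh lowest with mRNA at 2.60 and 0.343 FPKM, and Lin28a and Tdh show the widest gap between the assays.

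Some of the low genes differed between the RNA-seq replicates in the direction of the epiblast markers, and in Ribo-seq the directions were mixed. The RNA-seq direction was not particular to the epiblast, since all 6 primitive endoderm and 6 of 8 trophectoderm markers shared it. Tdh, Utf1 and Gdf3 were higher in RNA-seq replicate 1, the latter pair by 1.70- and 1.69-fold. Nanog, an epiblast transcription factor, was at 69.8 and 28.1 FPKM in the same libraries, and Pou5f1 was 2.46-fold higher in replicate 1. Dppa3 and Dppa2 were higher there by 1.28- and 1.17-fold, whereas Lin28a was 1.85-fold lower and L1td1 was at 12.7 against 14.8 FPKM. In Ribo-seq, Nanog was lower in replicate 1, at 169 against 278 FPKM. Utf1 and L1td1 were lower there too, while Tdh, Gdf3 and Lin28a were higher, the first at 30.5 against 17.9 FPKM. The part of each cell type in these differences was not tested, and in whole blastocysts fewer cells of a type and less RNA per cell cannot be told apart.

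The order of the 10 genes was similar in mRNA and RPF, with a Spearman's correlation of their mean levels of 0.939 (n = 10 genes of the same libraries). Across all 20714 symbols it was 0.899, and it was 0.811 across the 8327 symbols whose mean reached 1 FPKM in RNA-seq and in Ribo-seq, a filter that all 10 genes passed. Of the 10 genes, 8 lay over the median mRNA level of these symbols, 8.01 FPKM, and 9 over their median RPF level, 25.0 FPKM.

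To compare the assays gene by gene, the difference between RPF and mRNA was fitted with limma on log2(FPKM + 1), which understates the change of low genes. It was centred on the median of all 8327 genes, which was 1.26 on the log2 scale before centring, so a value of 0 is the RPF level per mRNA of the median gene. A gene was called where its log2 difference was at least 1 in size with a Benjamini-Hochberg adjusted p under 0.05. Lin28a was the single gene of the 10 that was called above, and limma called 0 below, while 9.13% of the 8327 genes were called above and 3.24% below. Of the 10 differences, 8 were above 0 and 2 below 0, and their median was 0.59 beside 0 for all genes. At an unadjusted p under 0.05, 4 of the 10 lay above and 1, Fbxo15, below, while 21.7% of the 8327 genes lay above and 14.2% below.

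The RPF level of Lin28a per mRNA was higher than that of the median gene by 2.49 on the log2 scale (SE 0.35, 95% interval 1.51 to 3.46, limma adjusted p = 0.0314), or 5.61-fold. In FPKM, before centring, both Ribo-seq libraries were above both RNA-seq libraries for Lin28a and for each of the other 9 genes alike. A larger difference was fitted for 3.49% of the genes tested. The call rests on few molecules and on both RNA-seq libraries: it was lost with a pseudocount of 0.1 FPKM (2.74, adjusted p = 0.0548), without RNA-seq replicate 1 (2.19, adjusted p = 0.290) and without RNA-seq replicate 2 (2.81, adjusted p = 0.306). Without either RNA-seq library no gene of the whole table was called by limma, against 1317 and 1260 genes at an unadjusted p under 0.05.

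Tdh and Dppa2 had point estimates over 1 that did not pass the test. For Tdh the difference was 2.21 (SE 0.61, 95% interval 0.53 to 3.90, adjusted p = 0.0884), with 4.64% of genes at a larger value. It was 1.496 without RNA-seq replicate 2 and passed without Ribo-seq replicate 2 (2.43, adjusted p = 0.0366), while without RNA-seq replicate 1 the gene no longer met the filter. For Dppa2 it was 1.02 (SE 0.25, 95% interval 0.34 to 1.70, adjusted p = 0.0715), which passed with a limma trend on the mean level. For its partner Dppa4 it was 0.78 (SE 0.25, 95% interval 0.07 to 1.48, adjusted p = 0.118).

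For the RNA-binding protein L1td1 the difference was 0.66 (SE 0.29, adjusted p = 0.190), for Gdf3 0.53 (SE 0.44, adjusted p = 0.442) and for Dppa3 0.32 (SE 0.27, adjusted p = 0.453). The value of Dppa3 turned to -0.18 with quantile normalization of the 4 libraries. For Utf1 it was 0.06 with a 95% interval of -0.93 to 1.05 (adjusted p = 0.917), and its sign depended on the setting. Each of these differences was under the size of 1 that a call requires, and none had an adjusted p under 0.05.

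The genes with the lowest values were among those with the highest mRNA levels. The value of Dppa5a was -0.38 (SE 0.24, 95% interval -1.03 to 0.27, adjusted p = 0.313), and that of Fbxo15 was -0.78 (SE 0.24, 95% interval -1.45 to -0.10, adjusted p = 0.110), with 24.6% of genes lower than Fbxo15. Both signs are relative to the median gene: without centring the values were 0.88 and 0.48, and with quantile normalization they were -1.37 and -1.42 and both passed.

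**Figure D2:**
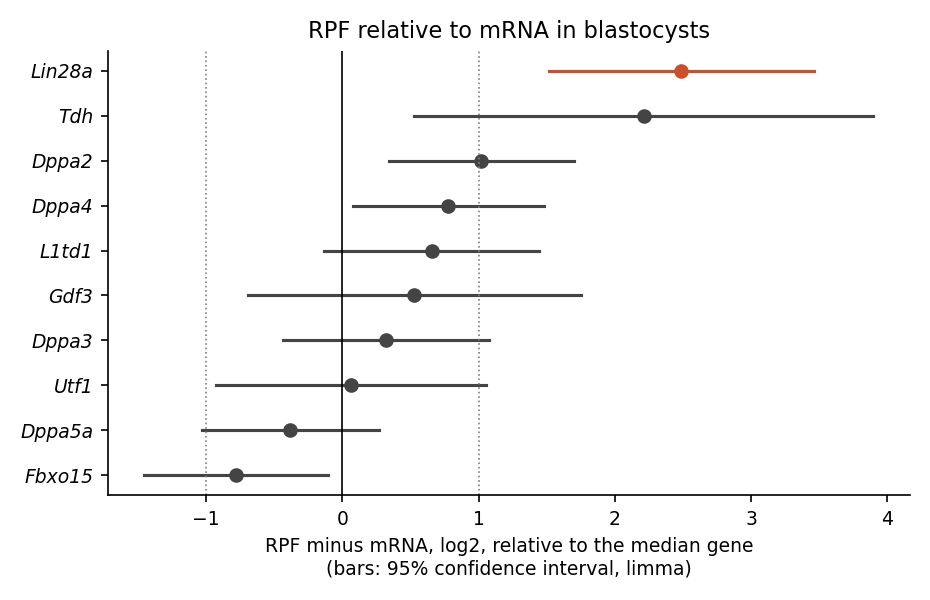
RPF minus mRNA of each of the 10 genes on the log2(FPKM + 1) scale, relative to the median of the 8327 genes (points), with 95% intervals from limma (bars) and dotted lines at differences of -1 and 1. Lin28a, at 2.49, is the single gene called, the interval of Tdh is the widest, and Fbxo15 and Dppa5a lie under 0 with centring but over 0 without it.

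**Figure D3:**
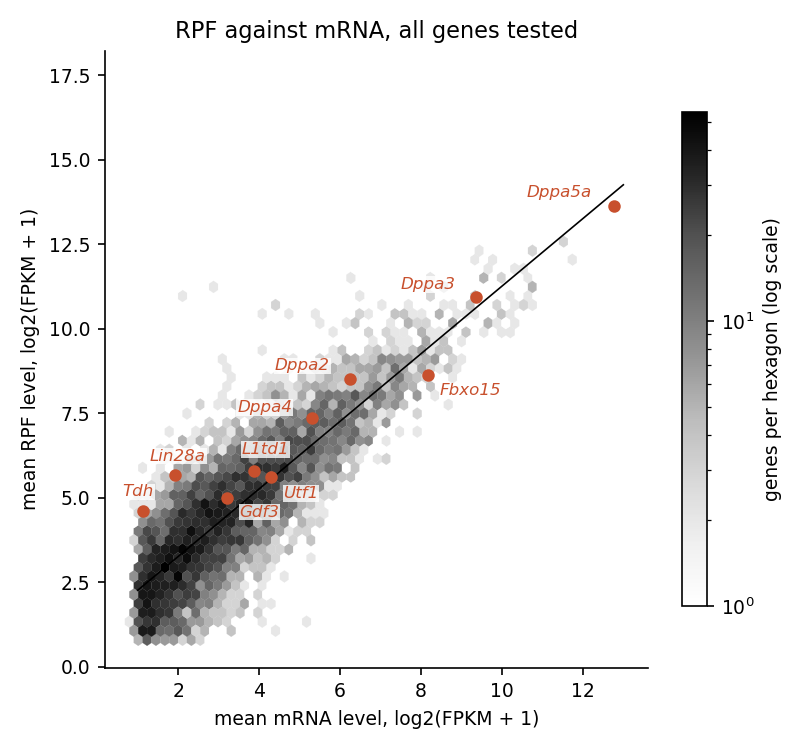
Mean RPF level against mean mRNA level on the log2(FPKM + 1) scale for the 8327 genes tested (grey hexagons, shaded by number of genes on a log scale), with the 10 genes as points and a line at the median difference of 1.26. Lin28a and Tdh lie above the line at low mRNA levels, and Dppa5a and Fbxo15 lie below it at high levels.

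The length that enters FPKM moved the values of the short genes. The low FPKM fell on whole fragments (within 0.1 of a fragment) in 65.5% and 62.1% of the values scored in RNA-seq and 84.4% and 84.4% in Ribo-seq when the length was reduced by the fragment length, as Cufflinks does for an effective length. With the full length the shares were 47.2% and 47.2%, and 39.3% and 37.1%, and 20% is given by chance. Reducing the length by fragments of about 200 bases raises the FPKM of a short coding sequence more than that of the longer transcript that carries it. With FPKM per full length, a setting chosen after the data were seen, the difference of Dppa5a moved from -0.38 to -0.82, that of Dppa3 from 0.32 to 0.02 and that of Lin28a from 2.49 to 2.16, where it still passed (adjusted p = 0.0389; 8.55% of 7294 genes called above and 3.83% below). The values of Dppa2, Dppa4, Tdh and Gdf3 moved by less, to 0.96, 0.76, 2.16 and 0.52, and those of L1td1, Utf1 and Fbxo15 moved up, to 0.77, 0.16 and -0.63. The annotated transcript of Fbxo15 had no UTR, with 1437 bases as for its coding sequence. Its length correction was therefore equal in both assays, and its move came from the centring. Over all genes with a length, the median move was -0.52 for 732 coding sequences under 500 bases and 0.06 for 6562 longer ones. The mean RPF level of Dppa5a per full length was 5786 FPKM, and that of Dppa3 was 1093 FPKM.

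Dppa1, which is none of the 10 and was named after its values were seen, shows the size of this effect. It had mRNA at 368 and 263 FPKM and RPF at 2691 and 3620 FPKM. Its difference was 2.06 as deposited (SE 0.33, adjusted p = 0.0384) and 1.23 per full length, where it did not pass (adjusted p = 0.0783); without RNA-seq replicate 1 or 2 it was 2.33 or 1.82 and did not pass.

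**Figure D4:**
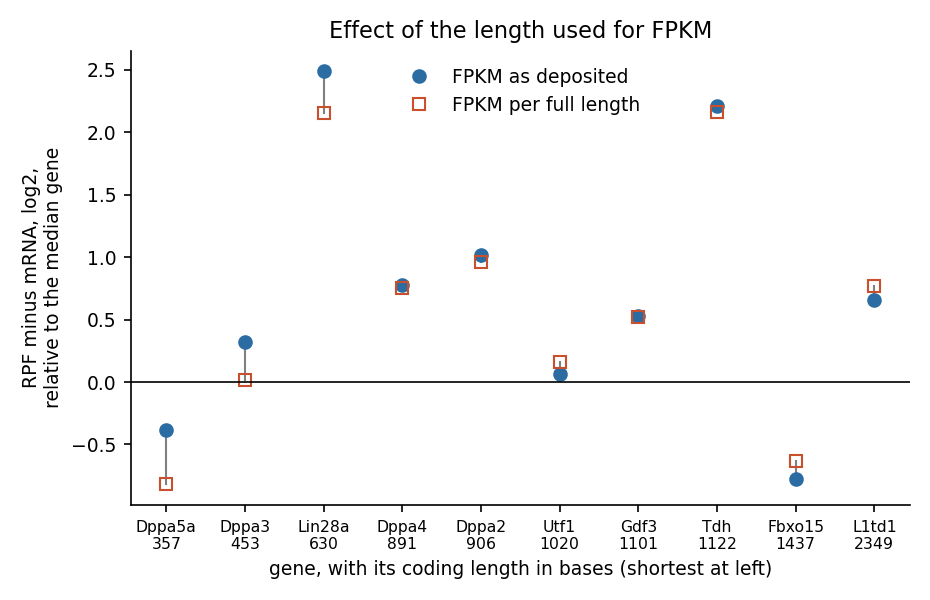
RPF minus mRNA (log2, relative to the median gene) of the 10 genes with FPKM as deposited (filled points) and per full length (open squares), with the genes in the order of their coding length in bases. The shortest, Dppa5a, Dppa3 and Lin28a, moved down to -0.82, 0.02 and 2.16, while the others moved less.

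Several of the genes share sequence with other places of the genome, where reads cannot be assigned to the gene alone. The coding sequences were divided into windows of 28 bases, about the length of a footprint, and each window was looked up in NCBIM37. The share of windows at 2 or more places was 88.7% in Dppa2, 75.5% in Dppa5a, 72.5% in Dppa4, 59.6% in Dppa3, 40.4% in Tdh and 10.8% in L1td1. It was 0% in Utf1, Fbxo15, Lin28a and Gdf3. A window across an exon junction is split at the gene's own locus, so at 1 place it can lie in a copy. The shares may therefore understate the shared sequence. No window of the 10 genes had more than 20 places, the limit that the authors set for a read. Other coding genes held 67.9% of the windows of Dppa5a, which were found in Dppa5b, Gm10112 and Pigp, and 43.2% of those of Dppa4, which were found in Gm5501. Of these, Pigp was listed in the deposited values and Dppa5b, Gm10112 and Gm5501 were not. The levels of Dppa2, Dppa3, Dppa4, Dppa5a and Tdh are thus uncertain by what their copies may take or give, whereas no coding window of Lin28a was found at 2 or more places. The UTRs, which enter the mRNA levels, were not searched.

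Neighbouring genes were measured around each locus, within 200 kb. Between Dppa3 and Nanog the levels differed, with Dppa3 above Nanog by 10.6- and 20.5-fold in mRNA and by 10.9- and 7.49-fold in RPF. Slc2a3, a glucose transporter near both, was at 69.5 and 46.8 FPKM in mRNA and 481 and 557 FPKM in RPF. Next to Dppa2 and Dppa4, Morc1, named after its values were seen, was at 0.709 and 0.680 FPKM in mRNA and at 2.11 and 0 FPKM in RPF.

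Around Dppa5a, its KH-domain relative Ooep was at 49.0 and 62.9 FPKM in mRNA, the elongation factor gene Eef1a1 at 2916 and 3059 FPKM, and the glutathione transferases Gsta4, Gsta1 and Gm3776 at mean levels of 311, 18.6 and 18.6 FPKM. Around Utf1, the mean mRNA level was 66.0 FPKM for Echs1, 18.7 for Zfp511, 18.5 for Mtg1, 8.97 for Tubgcp2 and 6.83 for Paox, against 19.2 ± 7.0 FPKM (SD, n = 2) for Utf1. Around Lin28a, at 2.87 ± 1.21 FPKM of mRNA (SD, n = 2), the mean mRNA level was 207 FPKM for Sh3bgrl3, 104 for Hmgn2, 21.4 for Rps6ka1 and 8.67 for Dhdds. These are the 4 of its 7 neighbours that reached 10 FPKM in an assay. The others were below Lin28a, with Cd52 and Gm7534 at 0 and Ubxn11 at a mean of 0.305 FPKM. Near L1td1, at 13.7 ± 1.45 FPKM (SD, n = 2), Usp1 had a mean of 12.1 FPKM. The neighbour of Tdh at over 10 FPKM in an assay was Mtmr9, with a mean mRNA level of 8.71 FPKM, and Fbxo15 had none.

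Genes related to the 10 by pathway, by protein domain or as markers of the same cells were counted by lists. The calls and medians of the lists cover only genes with a mean of at least 1 FPKM in both assays. Over all lists, the calls are read against the 9.13% above and 3.24% below among all genes, and limma called no list gene below, with 29 of 66 tested above and 1, Mael, below at an unadjusted p under 0.05, beside the 21.7% and 14.2% of all genes. For DPPA2 and DPPA4, none of 7 downstream genes of the 2-cell embryo could be tested, since the mean mRNA of each was under 1 FPKM, and 5 were under 1 FPKM in both assays. Dux, the transcription factor of that state, was at 0 and 0.106 FPKM in mRNA and Zscan4f at 0 and 0.0590 FPKM, both from at most 2 fragments. Tdpoz4 had no mRNA FPKM and 2.31 FPKM of RPF in replicate 1 alone. So the mRNA of Dppa2 and Dppa4 was present while the listed values of these genes were at or near 0. Copies of these genes elsewhere in the genome were not searched for, so their values are uncertain by reads shared or lost.

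Of the partners and targets of DPPA3, 0 of 5 tested were called by limma and 1 had an unadjusted p under 0.05, and the median difference was 0.26. Uhrf1, the cofactor of maintenance methylation that DPPA3 keeps from chromatin, had mRNA at 9.72 and 8.72 FPKM and RPF at 78.4 and 47.5 FPKM, with a difference of 1.34 (adjusted p = 0.0787). Tet2 and Tet1, which oxidise methylated cytosine, had mean mRNA levels of 17.9 and 2.51 FPKM and differences of -0.19 and -0.42. Xpo1, the nuclear export receptor, had a difference of 0.57.

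Among KH-domain relatives of DPPA5A, 3 of 5 tested were called above, and the list's median difference was 4.59. These were Khdc1a, Khdc1b and Khdc1c. Khdc1b had mRNA at 2.55 and 2.04 FPKM and RPF at 731 and 821 FPKM, a difference of 6.62 (SE 0.25, adjusted p = 0.00551), whereas Khdc1a and Khdc1c had differences of 5.99 and 4.59. Per full length the differences of Khdc1a, Khdc1b and Khdc1c were 5.53, 5.80 and 4.15, and each still passed. Sequence shared between these genes was not searched, so reads may be shared between them. Ooep and Khdc3, maternal genes of the subcortical complex, had differences of 0.95 and 0.93 and did not pass. Dppa5a differed from these relatives in having its mRNA at 6964 FPKM on average and a difference under 0, which turned above 0 without centring; this contrast was not tested.

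Of the LIN28 and let-7 axis, 3 of 11 tested were called above, and the median difference was -0.04. Hmga2, a chromatin protein whose mRNA is a classical let-7 target, had mRNA at 8.69 and 12.5 FPKM and RPF at 712 and 813 FPKM, a difference of 4.79 (SE 0.30, adjusted p = 0.0131). Per full length the difference of Hmga2 was 3.75, which still passed. Igf2bp1 and Igf2bp2, mRNA-binding proteins and also let-7 targets, had differences of 2.99 and 1.45. Igf2bp3, Trim71 and Dicer1 of the same list, named after their values were seen, had differences of -0.08, -0.12 and -0.69. None of these was called, and let-7 targets as a class were not tested. Dis3l2, the nuclease that degrades uridylated let-7 precursors, had a difference of -1.93 (adjusted p = 0.157). Lin28b, the paralogue of Lin28a that was named after its values were seen, had mRNA at 0.390 and 0.374 FPKM, and its RPF were listed at 0 in both libraries.

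Since LIN28A and let-7 act on each other, the 3′ UTRs were searched on the mRNA strand for CTACCTC, the match to bases 2 to 8 of let-7a. The miRNA is shown with these bases in capitals, from RefSeq, followed by each match in a 3′ UTR of the 10 genes with the match in capitals.
let-7a: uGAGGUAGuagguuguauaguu
Lin28a: gcctgttgaaCTACCTCattttt
Lin28a: cgccacaaacCTACCTCactgtg
Gdf3: tctctttcctCTACCTCctgtgt
The matches stood at bases 909 and 1547 of the 2775 bases of the 3′ UTR of Lin28a and at base 272 of the 903 bases of that of Gdf3. The other 7 genes with a 3′ UTR searched held none. Such a match was found in 7.78% of 16683 3′ UTRs and in 14.6% of the 1333 whose length was within 1.2 times that of Lin28a. The match is a description of the sequence, and let-7 itself was not measured.

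Around TDH, 1 of 10 tested genes of threonine and glycine catabolism and one-carbon metabolism was called above, Mat2a, which makes S-adenosylmethionine. Its mRNA was at 23.9 and 28.7 FPKM and its RPF at 203 and 165 FPKM, a difference of 1.498 (SE 0.27, adjusted p = 0.0458). Gldc, Gcsh and Dld of the glycine cleavage system were present, with mean mRNA levels of 5.62, 114 and 58.1 FPKM, all above the 1.47 ± 1.60 FPKM (SD, n = 2) of Tdh. Gldc had a difference of 1.501 (adjusted p = 0.0715) and Shmt1, a serine hydroxymethyltransferase, one of -0.24. The median of the list was 0.28.

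Of the 6 core genes of the SCF ligase in which FBXO15 acts, 3 were called above, Nedd8, Rbx1 and Ube2m, and the median difference was 1.44. None of these passed with FPKM per full length. Skp1a, the adaptor that binds F-box proteins, had mRNA at 606 and 637 FPKM and RPF at 1731 and 1851 FPKM, a difference of 0.26, and the scaffold Cul1 one of 0.20. Nedd8, which modifies cullins, had a difference of 1.70 (SE 0.23, adjusted p = 0.0300), and 0.85 per full length.

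Of the pathway of GDF3, 7 of 14 genes were tested and 2 were called above, the convertase Furin and the signal transducer Smad2, with differences of 1.34 and 2.24. The ligand genes Nodal, Gdf1 and Lefty1, named after their values were seen, were listed at 0 in all 4 libraries, so Gdf3 was measured where these were not. Tdgf1, the coreceptor CRIPTO, had mRNA at 22.2 and 2.12 FPKM and RPF at 192 and 257 FPKM, and its difference of 3.45 did not pass (adjusted p = 0.106). Pcsk6, another convertase, had a difference of 0.67 and the receptor Acvr2b one of -0.63. The median of the list was 1.32.

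Of 15 other candidates used in reprogramming and listed in both assays, 11 were tested and 1 was called above, the adaptor gene Grb2. Its mRNA was at 4.32 and 2.98 FPKM and its RPF at 112 and 82.3 FPKM, a difference of 3.14 (SE 0.32, adjusted p = 0.0218). Among those not tested, Eras was at 0 in both assays. Sox2, Tcl1 and Klf4, named after their values were seen, had mean mRNA of 0.786, 0.355 and 0.626 FPKM and mean RPF of 36.2, 93.6 and 7.04 FPKM. Pou5f1, the central pluripotency factor, had a difference of 2.15 that did not pass (adjusted p = 0.0684), Dnmt3l one of 0.75 and Myc one of -0.64. Of 20 further ES cell and germline genes, 12 were tested and 1 was called above, the corepressor gene Trim28 (1.90, SE 0.23, adjusted p = 0.0263). Of the 20, 4 were under 1 FPKM in both assays. Esrrb and Fgf4, named after their values were seen, were not tested either. Their mean mRNA was 0.998 and 0.430 FPKM and their mean RPF 16.4 and 11.8 FPKM. Trap1a and Klf5 had the highest mRNA levels of that list, with means of 322 and 95.5 FPKM, Klf2 the highest difference (2.45, adjusted p = 0.0816) and Mael the lowest (-1.44, adjusted p = 0.0857). The medians of the tested genes of these lists were 0.75 and 0.69, close to the 0.59 of the 10 genes, and leave out the genes not tested.

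**Figure D5:**
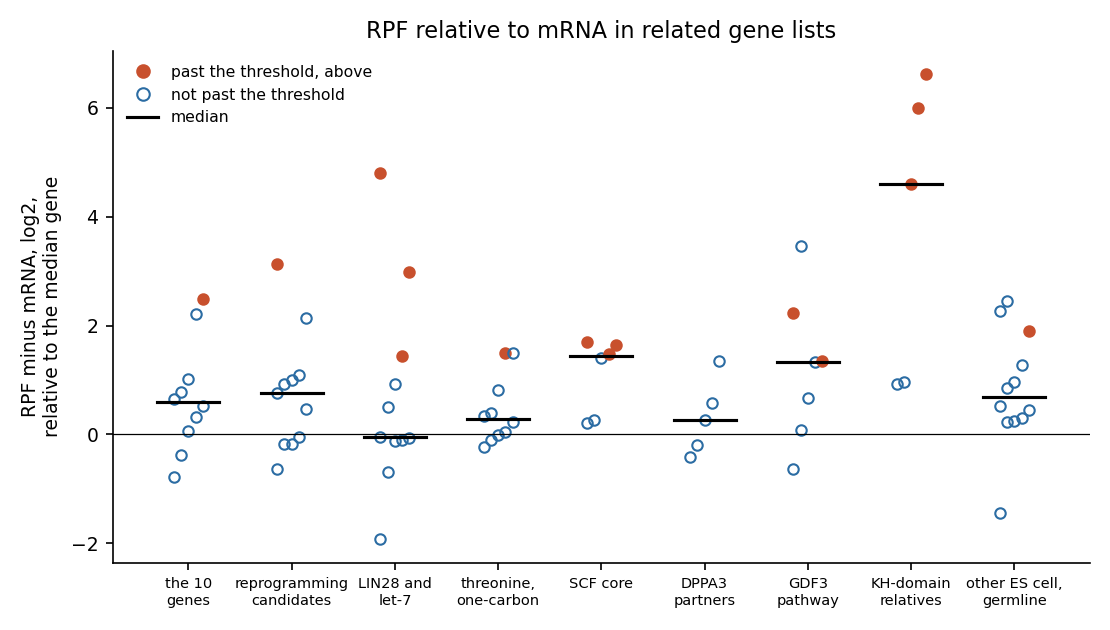
RPF minus mRNA (log2, centred on all genes) of each tested gene of the 10 and of the lists of related genes, with filled points for genes called by limma and a bar at each median. Calls above 0 are at Lin28a among the 10 genes and at 14 genes of the lists, and the KH-domain relatives reach 6.62.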

How the data were processed

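Blastocysts were profiled by RNA-seq and Ribo-seq, with 2 libraries per assay. The authors deposited FPKM per gene symbol and library. They trimmed reads (Trim Galore 0.4.2, cutadapt 1.14), discarded rRNA reads of Ribo-seq (Bowtie2 2.2.2), mapped to mm9 transcripts with STAR 2.5.3a at up to 20 places per read, and ran Cufflinks 2.2.1 on transcripts for RNA-seq and coding sequences for Ribo-seq.

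A repeated symbol took its highest FPKM. RPF minus mRNA was fitted with limma 3.58.1 (R 4.3.3) on log2(FPKM + 1) over all 4 libraries, for 8327 symbols with a mean of at least 1 FPKM in both assays, centred on their median, with Benjamini-Hochberg adjustment over these symbols. Fragments were read from low FPKM with the Cufflinks effective length (mean 200, SD 80 bases), for want of deposited counts. Coordinates and sequences came from NCBIM37 with GENCODE vM1, and let-7a from RefSeq. Other steps used Python 3.11.15, numpy 2.4.6, pandas 2.3.3, scipy 1.17.1 and numba 0.67.0, and matplotlib 3.10.9 for plots.

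The 10 genes and the lists were chosen with earlier results of these data known. Of each list the text names the 2 genes with the highest mean mRNA, the 2 with the highest mean RPF and those with the highest and lowest difference, and of neighbours those with at least 10 FPKM in an assay. Other genes, including called list genes outside this rule, were named after their values were seen. The alternatives were a pseudocount of 0.1, no filter or one of 10 FPKM, no centring, quantile normalization, sums of repeated symbols, a limma trend, a replicate block, leaving out each library and, chosen after the data were seen, symbols with a length only and FPKM per full length. No sequence is given for Fbxo15.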

Additional observations from a re-analysis of the deposited data

How the results depend on the processing

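Of 136 alternative values of RPF minus mRNA for the 10 genes, 110 kept their direction and side of the threshold, 13 passed where they had not, 4 no longer passed and 9 turned direction; the causes were not tested. Lin28a stayed above 0 in all 13 of its alternatives (2.16 to 3.75, adjusted p from 0.00626 to 0.306) and passed in 9. It missed with the pseudocount of 0.1 (2.74), with the replicate block (2.49, adjusted p = 0.0934) and without either RNA-seq library (range over the 4 libraries left out, 2.19 to 2.81). The sources do not say whether same-numbered libraries are paired. The correlation of their deviations was 0.00994 over 8327 genes. It cannot decide this, since independent noise in paired libraries would also give a low value. The block left 27 genes above and 1 below. Without centring, the values of Dppa2, Dppa3, Dppa4, Dppa5a, Tdh, Utf1, Fbxo15, L1td1 and Gdf3 were 2.28, 1.58, 2.04, 0.88, 3.47, 1.32, 0.48, 1.92 and 1.79, and all but Fbxo15 and Dppa5a passed as called above; with no filter the median shift was 0, and Dppa2, Dppa4, Dppa5a and Fbxo15 had the same values (2.28, 2.04, 0.88 and 0.48). With quantile normalization Dppa3, Dppa5a, Utf1 and Fbxo15 were at -0.18, -1.37, -0.29 and -1.42. With a limma trend Dppa2 passed at 1.02. Utf1 was at -0.027 with the pseudocount of 0.1 and at -0.30 to 0.45 when a library was left out, and Tdh at 1.496 to 2.43.

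All genes called above and below numbered 760 and 270. They were 413 and 130 with the pseudocount of 0.1, 1961 and 123 with no filter, 620 and 413 at 10 FPKM, 4113 and 65 without centring, 618 and 574 with quantile normalization, 1134 and 477 with a limma trend, and from 0 to 1359 and from 0 to 1287 when a library was left out. A fit without an RNA-seq library assumes that the lone library varies like those of Ribo-seq, and the reverse without a Ribo-seq library. Of the 10 genes, those called above were 0 with the pseudocount of 0.1, 3 with no filter, 0 at 10 FPKM (where Lin28a, Tdh and Gdf3 were not tested), 8 without centring, 2 with a limma trend, 0 with the replicate block and 0 to 2 when a library was left out, and 2 were called below with quantile normalization. Of the list genes, 14 were called above, and 8 with the pseudocount of 0.1, 36 with no filter, 55 without centring, 9 with quantile normalization, 2 with the block and 0 to 21 when a library was left out; 1 was called below at 10 FPKM, and 0 to 1 when a library was left out.

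Rescaled to sum to 1000000 per library, the mRNA levels were 141.5 for Dppa2, 1247 for Dppa3, 73.4 for Dppa4, 13167 for Dppa5a, 36.4 for Utf1, 540.3 for Fbxo15, 26.0 for L1td1, 5.41 for Lin28a and 16.1 for Gdf3. The RPF levels were 189 for Dppa2, 1009 for Dppa3, 84.3 for Dppa4, 6603 for Dppa5a, 12.5 for Tdh, 24.8 for Utf1, 206 for Fbxo15, 28.4 for L1td1, 26.0 for Lin28a and 16.7 for Gdf3. Percentiles among symbols of at least 1 FPKM in both assays were, for mRNA and RPF, 88.9 and 91.7 for Dppa2, 98.2 and 98.0 for Dppa3, 81.7 and 84.6 for Dppa4, 99.98 and 99.8 for Dppa5a, 6.62 and 49.1 for Tdh, 70.3 and 65.1 for Utf1, 96.5 and 92.1 for Fbxo15, 62.8 and 67.9 for L1td1, 21.7 and 65.9 for Lin28a, and 51.5 and 56.3 for Gdf3. Among all symbols and with a library left out, the percentile of Dppa5a was 99.981 to 99.986 in mRNA and 99.932 to 99.937 in RPF, and that of Fbxo15 was 98.51 to 98.60 in mRNA.

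Depth limits the low genes: at the lower number of footprints, the counting error was 35.4% for Tdh, 33.3% for Lin28a and 31.7% for Gdf3.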
